A study of Mustela putorius furo and Mus musculus with 4 samples.

Results

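DNA replication and deoxynucleotide supply genes were compared between cultured ferret (Mustela putorius furo) and mouse (ICR strain) astrocytes. The list held 46 gene symbols, named for their role in copying DNA and chosen with earlier results of these data known. Of these, 40 had an FPKM value in both species, 4 were used in mouse alone and 2 (Cdt1 and Gins2) were not analysed here, out of 13373 symbols shared by the species. All 40 passed the filter on low values. Each species was represented by 2 libraries (replicates 1 and 2). Cells came from the cerebral cortices of P1 ferrets and of mice aged P1 to P3, were grown as mixed glia for 14 days in medium with 10% serum, were shaken for 12 h to remove loose cells, and were replated. Serum was then withdrawn for several days before RNA was taken, and both groups were kept in a defined medium with antibiotics (penicillin and streptomycin), N-acetyl cysteine and heparin-binding EGF-like growth factor, which is known as a mitogen. Mouse flasks held pooled animals and ferret flasks did not. The sources do not say whether the duplicate libraries came from separate cultures.

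Replication is prepared in G1, when the origin recognition complex (ORC), Cdc6 and Cdt1 load the MCM helicase onto DNA, a step that geminin blocks by binding Cdt1. In S phase the helicase is switched on by Cdc45 and the GINS complex, primers are laid down by polymerase alpha with primase, and polymerases delta and epsilon extend them while held on DNA by the PCNA clamp, which the RFC complex loads. Ribonucleotide reductase, thymidylate synthase, thymidine kinase and dUTPase supply deoxynucleotides and keep uracil out of DNA. Many of these genes are transcribed in late G1 under E2F factors, so their RNA is commonly read with that of other cell cycle genes, and astrocytes of the newborn cortex still divide.

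The values are FPKM, fragments per kilobase of exon per 1000000 mapped fragments, which allow levels of different genes to be compared per length but rest on the gene models of each species. Summed over shared symbols, the ferret libraries held 227391 and 236543 FPKM, and those of mouse 300465 and 308121 FPKM. FPKM carry no read counts, and the study's counts were not used here. The steps between low values gave a depth of replicate 1 of 1.17 times that of replicate 2 in ferret and 0.834 times in mouse. Differences were taken on log2(FPKM + 1), ferret minus mouse, with limma across 10204 symbols with a mean of at least 1 FPKM in one species or both, and the median over all these symbols was -0.35. On this scale the differences of low genes are understated. A gene is termed called where the Benjamini-Hochberg adjusted p was under 0.05 and the log2 difference was above 1 in size. Over the 40 genes, duplicates differed by a median of 0.094 in ferret and 0.069 in mouse (absolute log2 values). The p-values measure only the spread between these libraries, which may be technical, and species, gene models and culture cannot be told apart. For a single gene the smallest two-sided p of an exact permutation test is 0.333 at 2 libraries a group, so the p-values given are those of limma. SE stands for the standard error of the log2 difference.

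The cultures carried astrocyte RNA in both species, with RNA of other cells beside it. The summed level of 9 astrocyte markers, most of it from Aldoc and Gfap, was 3554 and 3654 FPKM in ferret and 3104 and 3361 FPKM in mouse. Of the 9, however, 1 (S100b) was called higher and 5 lower in ferret (Aqp4, Aldh1l1, Slc1a3, Slc1a2 and Gja1), with a median log2 difference of -1.16, and Slc1a2 stood at 0.133 and 0.178 FPKM in ferret against 47.1 and 51.8 in mouse. The 9 microglial markers found summed to 68.4 and 68.6 FPKM in ferret and 575 and 563 FPKM in mouse, with 8 of 9 called lower and Cx3cr1 listed at 0 in both ferret libraries. The 8 fibroblast markers summed to 202 and 183 FPKM in ferret and 1263 and 1190 FPKM in mouse, with 7 of 8 called lower. The 7 oligodendrocyte lineage markers found summed to 88.0 and 94.7 FPKM against 23.1 and 21.1 FPKM. Of 6 tested, 3 were called higher, among them Sox10 and Mbp, whereas Olig2 and Cspg4 were lower by the adjusted p (log2 differences -0.82 and -0.47). The 4 neuronal markers found summed to 24.7 and 24.7 FPKM against 31.9 and 33.1 FPKM, a sum carried by Map2, whereas Syt1 was called higher in ferret (5.11 and 4.94 FPKM against 1.12 and 1.25 FPKM). The 4 endothelial markers summed to 0.288 and 0.210 FPKM against 23.0 and 23.5 FPKM, with Pecam1 and Cdh5 listed at 0 in ferret and Cldn5 in mouse. The part that these cells had in the levels of the replication genes was not tested.

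The replication genes did not move as a block between the species. Most genes that license origins stood lower in ferret astrocytes, the catalytic polymerase subunits and the enzymes of deoxynucleotide supply stood level or higher, and single subunits of the same complex went opposite ways. Geminin, Gins4 and Rfc2 were called lower under each of the 4 scalings tried. With FPKM as deposited, Dut was the 1 gene called higher, and it is listed at 0 in both mouse libraries. Under the other 3 scalings, 8 to 10 genes were called higher and 3 lower. Over all 10204 symbols tested, the same scalings gave 1954 to 2197 higher and 2082 to 2536 lower calls. In cultures of mixed cells, a different number of dividing cells and a different amount of RNA per dividing cell cannot be told apart.

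Of the 40 genes, 1 (2.5%) was called higher and 7 (17.5%) were called lower in ferret astrocytes. Over all symbols tested the shares were 13.1% and 30.1%. The gene called higher was Dut, whose 0 in mouse was known beforehand. By the adjusted p alone, 16 of the 40 (40%) were higher and 17 (42.5%) were lower, against 32.4% and 56.2% of all symbols. Both ferret libraries stood above both mouse libraries for 16 genes and below them for 19, against 35.1% and 59.0% of all symbols, and the libraries of the species overlapped for 5 genes. The log2 differences had a median of -0.096 over the 40 genes and -0.11 without Dut, and 25 of the 40 lay above the median of all symbols.

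The split depended on how the libraries were scaled to each other. When each library was set to the same total (the average of the 4), 8 genes were called higher and 3 lower, and the median log2 difference was 0.23. With quantile normalization 10 were called higher and 3 lower, and the median was 0.33. With totals of 1000000 the counts were 10 and 3. These steps moved the median of all symbols as well, from -0.35 to -0.012 at equal totals and to 0.050 with quantile normalization, and the share of higher among all calls, over all symbols, from 30.3% to 46.9% at equal totals, with 2080 higher and 2082 lower calls after quantile normalization. The calls over all 10204 symbols were 1954 higher and 2215 lower at equal totals, and 2197 and 2536 with totals of 1000000. The 3 genes called lower under all 4 scalings were Gmnn, Gins4 and Rfc2. The 4 genes Orc3, Orc4, Lig1 and Rpa1 were called lower only with FPKM as deposited. The 7 genes Mcm6, Pcna, Rfc4, Rfc5, Fen1, Tk1 and Rrm2 were called higher under all 3 other scalings and not with FPKM as deposited, and Cdc6 and Pola1 under 2 of them.

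**Figure D1:**
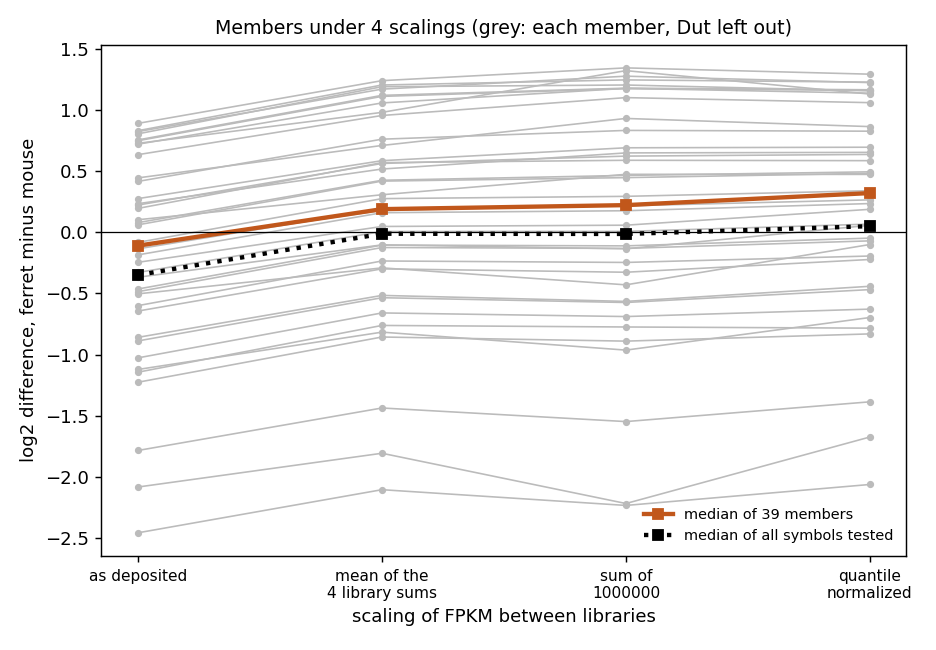
Log2 difference between ferret and mouse (vertical axis, ferret minus mouse) of 39 genes, Dut left out, under 4 scalings of FPKM (horizontal axis). Each grey line is a gene, the orange line is the median of the 39 genes and the dotted black line is the median of all 10204 symbols tested. The 3 lowest lines are Rfc2, Gmnn and Gins4, which stay below -1 throughout, and both medians shift upwards together from the deposited values to the other scalings.

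The highest levels were held by different genes. In ferret astrocytes Pcna came first with a mean of 84.1 FPKM, followed by Dut at 41.4, Rpa1 at 29.3, Rrm2 at 28.7 and Rrm1 at 23.1 FPKM. In mouse astrocytes Rpa1 came first at 65.9 FPKM, followed by Pcna at 47.7, Rfc2 at 31.8, Orc4 at 28.9 and Orc3 at 23.5 FPKM. The ferret libraries of Rpa1 and Rrm2 overlapped, so their order is not resolved. The lowest levels in ferret were those of Mcm10 (0.900 FPKM), Gmnn (1.14 FPKM) and Orc1 (1.17 FPKM), of which the last 2 overlapped between libraries. In mouse, Orc1 (1.02 FPKM) and Cdc6 (1.23 FPKM) were lowest apart from Dut. Among the 40 genes, Rfc2 ranked at position 27 in ferret and 3 in mouse, and Gins4 at 28 and 7.

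**Figure D2:**
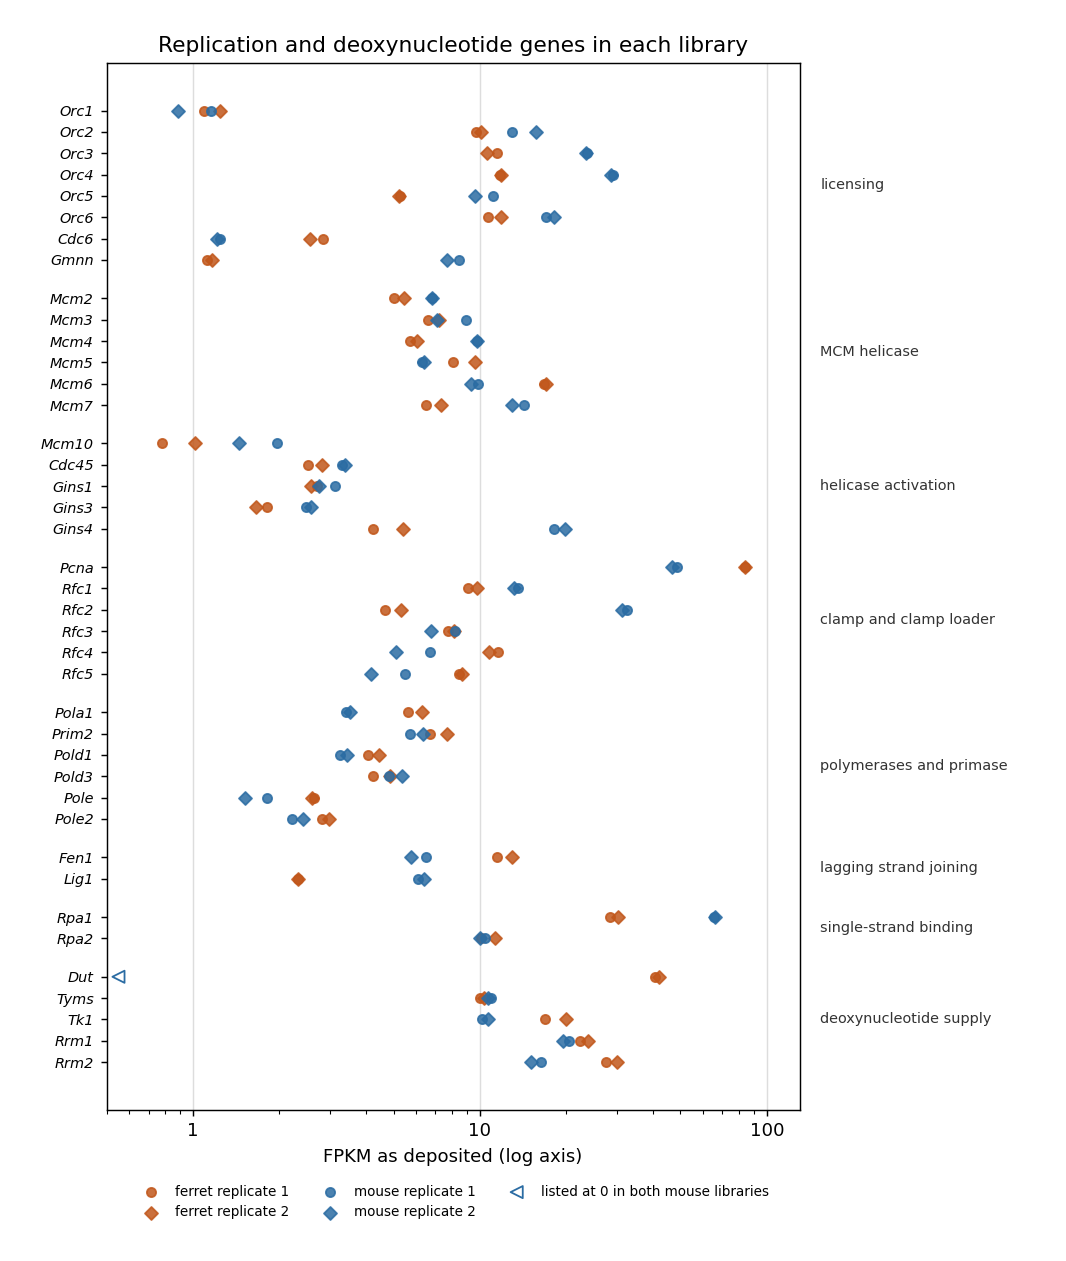
FPKM as deposited (horizontal log axis) of the 40 genes, grouped by role, with 1 point per library (orange for ferret, blue for mouse, circles for replicate 1, diamonds for replicate 2). The open triangle marks Dut, listed at 0 in both mouse libraries. Duplicates lie close together, and the species are farthest apart for Dut, Rfc2, Gmnn and Gins4.

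Dut encodes dUTPase, the enzyme that breaks dUTP down to dUMP and so keeps uracil from being built into DNA and feeds thymidylate synthesis. It stood at 40.7 and 42.1 FPKM in the ferret libraries, and is listed at 0 in both mouse libraries. The groups do not overlap, but an exact 0 in values of this kind can be a failed estimate, and no fold is given. The study's read counts, which bear on this, were not used here. Mouse Dut spans chr2:125247190-125258608 (GRCm38, plus strand), with 3 annotated transcripts, of which 2 are coding, and up to 7 exons. Its final coding stretch is shown because both coding transcripts hold it, so that reads of either would cover it. These 150 bases end the coding sequence of both coding transcripts (603 and 489 bases in all), and the capitals mark the stop codon:

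Mouse Dut, coding end: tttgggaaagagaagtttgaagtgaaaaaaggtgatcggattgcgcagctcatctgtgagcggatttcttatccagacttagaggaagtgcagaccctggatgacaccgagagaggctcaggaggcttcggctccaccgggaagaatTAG

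The stretch occurs in the annotated transcripts of 0 other genes. Of the 2211 distinct windows of 100 bases in the annotated Dut transcripts, 0 recurred in a transcript of another gene on either strand. Only exact matches within annotated transcripts were searched, so diverged or unannotated copies would not be found. Dut was not the only symbol listed at 0 in mouse. Of the shared symbols with a ferret mean of at least 1 FPKM, 36 are listed at 0 in both mouse libraries, and Dut ranked at position 2 of them by ferret mean. Nts (49.4 FPKM) ranked above it, and Clps (23.7), Junb (18.7), Armc12 (17.5) and Pudp (11.5 FPKM) followed. In the other direction, 72 shared symbols with a mouse mean of at least 1 FPKM are listed at 0 in both ferret libraries, and none of the 40 replication genes is among them.

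The other enzymes of deoxynucleotide supply were level or higher in ferret astrocytes, with no gene of the 4 called. Rrm2, the regulated small subunit of ribonucleotide reductase, stood at 27.5 and 30.0 FPKM in ferret and at 16.3 and 15.1 FPKM in mouse. The ferret mean was 1.83 times the mouse mean, with a log2 difference of 0.83 (SE 0.071, adjusted p = 1.70e-06). Its partner Rrm1, the large subunit, stood at 22.3 and 23.9 FPKM against 20.5 and 19.5 FPKM, a log2 difference of 0.20 (adjusted p = 0.0172). Both genes had their ferret libraries above their mouse libraries, and the difference was larger for the small subunit. Tk1, the thymidine kinase of the salvage pathway, stood at 16.8 and 19.9 FPKM in ferret and at 10.2 and 10.7 FPKM in mouse, a log2 difference of 0.76 (SE 0.084, adjusted p = 1.35e-05). Tyms, which makes dTMP from dUMP, the product of dUTPase, stood at 10.0 and 10.3 FPKM in ferret and at 11.0 and 10.7 FPKM in mouse. Its log2 difference was -0.082 (adjusted p = 0.265), and 0.28 to 0.34 under the other scalings. Set against these 4 genes, whose log2 differences ranged from -0.082 to 0.83, Dut stands apart through its 0 in mouse. That 0 was known before Dut was set against the rest, so the contrast is a description and not a test. With Dut left out, the summed level of the 39 genes was 395 and 417 FPKM in ferret and 472 and 461 FPKM in mouse. These sums are of FPKM as deposited, and the totals over all shared symbols were lower in ferret as well (227391 and 236543 against 300465 and 308121 FPKM). The median log2 difference of the 39 genes was -0.11 as deposited and 0.19 at equal library totals, so the sums give no direction apart from scaling.

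Genes that license origins were mostly lower in ferret astrocytes. Of 8, 3 (37.5%) were called lower, beside 30.1% of all symbols. Under each of the other scalings 1 of 8 was called lower, beside 2082 to 2536 of all 10204 symbols. There 5 of 8 were lower by the adjusted p alone, beside 4366 to 4539 of all symbols, and the following values are of FPKM as deposited. By the adjusted p alone 6 of 8 (75%) were lower, beside 56.2% of all symbols, the median log2 difference was -0.73, and the summed level was 53.9 and 54.5 FPKM in ferret against 105 and 105 FPKM in mouse. The largest difference was that of Gmnn, which encodes geminin, the inhibitor of Cdt1. It stood at 1.12 and 1.16 FPKM in ferret and at 8.46 and 7.69 FPKM in mouse, so that the mouse mean was 7.09 times the ferret mean. The log2 difference was -2.08 (SE 0.079, adjusted p = 4.42e-09), and it ranged from -1.67 to -2.22 under the other scalings. The difference far exceeded the spread between duplicates. Mouse Gmnn spans chr13:24751845-24761923 (GRCm38, minus strand). Cdc6, the loader that works with ORC, went the other way, at 2.83 and 2.55 FPKM in ferret and 1.25 and 1.21 FPKM in mouse. Its log2 difference was 0.73 (SE 0.079, adjusted p = 1.14e-05), so it was higher by the adjusted p without being called.

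The subunits of ORC, the complex that marks origins, differed among themselves. Orc1, the subunit whose amount follows the cell cycle in many cells, stood at 1.10 and 1.24 FPKM in ferret and 1.16 and 0.888 FPKM in mouse, and the libraries overlapped. Its log2 difference was 0.10 (adjusted p = 0.301), and 0.31 to 0.47 under the other scalings (adjusted p = 0.00140 to 0.0177), not called. Orc4 stood at 11.7 and 11.8 FPKM in ferret and 29.2 and 28.6 FPKM in mouse, a log2 difference of -1.23 (SE 0.061, adjusted p = 2.91e-08). Orc3 stood at 11.5 and 10.6 FPKM against 23.6 and 23.4 FPKM, a log2 difference of -1.03 (adjusted p = 2.19e-07). It lay just past the limit of 1, and without ferret replicate 2 it was -0.97 and was not called. Orc5 stood at 5.28 and 5.21 FPKM against 11.1 and 9.60 FPKM, with a log2 difference of -0.86. Orc6 stood at 10.7 and 11.8 FPKM against 16.9 and 18.1 FPKM, with a log2 difference of -0.60. Orc2 stood at 9.69 and 10.1 FPKM against 13.0 and 15.6 FPKM, with a log2 difference of -0.49. The last 3 were lower by the adjusted p (4.19e-06, 2.88e-05 and 4.79e-04) and not called, and all 5 of these subunits remained below 0 under the other scalings. Orc2, however, then lay at only -0.12, -0.13 and -0.070, with an adjusted p of 0.186, 0.190 and 0.467, so its direction was not resolved there. Of the windows of mouse Orc2 transcripts, 23.6% lie antisense to transcripts of Nif3l1, which had 13.9 and 14.9 FPKM in mouse, and the part this overlap had was not tested.

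The MCM helicase, a ring of subunits that are needed in equal amounts, had no subunit called in either direction. Mcm6 stood at 16.7 and 16.9 FPKM in ferret and at 9.87 and 9.35 FPKM in mouse, a log2 difference of 0.75 (SE 0.066, adjusted p = 2.16e-06). Mcm7 went the opposite way, at 6.49 and 7.34 FPKM in ferret and 14.3 and 13.0 FPKM in mouse, a log2 difference of -0.89 (SE 0.081, adjusted p = 2.99e-06). In mouse, 7.44% of the windows of Mcm7 transcripts recur in other genes, with under 5% for any single partner. Mcm6 was the most abundant subunit in ferret, and Mcm7 in mouse. Mcm5 was higher by the adjusted p, at 8.09 and 9.60 FPKM against 6.30 and 6.40 FPKM (log2 difference 0.42, adjusted p = 0.00115). Mcm4 was lower, at 5.72 and 6.04 FPKM against 9.76 and 9.73 FPKM (log2 difference -0.64, adjusted p = 1.15e-05). The directions of Mcm4, Mcm5, Mcm6 and Mcm7 were the same under all 4 scalings. Mcm2, at 5.04 and 5.45 FPKM against 6.84 and 6.83 FPKM, had a log2 difference of -0.33 (adjusted p = 0.00196) with FPKM as deposited and of 0.0070 at equal library totals. Mcm3, at 6.61 and 7.19 FPKM against 8.96 and 7.08 FPKM, had overlapping libraries and a log2 difference of -0.18 that turned to 0.16 at equal totals.

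Of the factors that activate the helicase, Gins4 was called lower. Gins4, a subunit of the GINS complex, stood at 4.24 and 5.39 FPKM in ferret and at 18.1 and 19.8 FPKM in mouse, and the mouse mean was 3.94 times the ferret mean. Its log2 difference was -1.78 (SE 0.098, adjusted p = 6.22e-08) and ranged from -1.39 to -1.55 under the other scalings. The other GINS subunits were closer. Gins1 stood at 2.71 and 2.58 FPKM in ferret and 3.12 and 2.75 FPKM in mouse, a log2 difference of -0.11 (adjusted p = 0.230) that became 0.18 at equal library totals. Gins3 stood at 1.81 and 1.66 FPKM against 2.48 and 2.57 FPKM, a log2 difference of -0.37 (adjusted p = 0.00129) that became 0.058 after quantile normalization. Within the complex, Gins4 therefore had the highest level of the 3 subunits in both species, by a wider margin in mouse. Cdc45, which completes the active helicase, stood at 2.52 and 2.82 FPKM in ferret and 3.31 and 3.38 FPKM in mouse, a log2 difference of -0.25 (adjusted p = 0.0146) that became 0.048 at equal library totals. Mcm10, which helps to open the loaded helicase, stood at 0.781 and 1.02 FPKM against 1.96 and 1.44 FPKM (log2 difference -0.50, adjusted p = 0.00146). It became -0.29 at equal library totals (adjusted p = 0.0469) and -0.10 after quantile normalization (adjusted p = 0.429). Mcm10 passed the filter through its mouse values alone, with a ferret mean of 0.900 FPKM. Mouse Gins4 spans chr8:23226616-23237659 (GRCm38, minus strand).

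Pcna and most of its loader stood apart from Rfc2. Pcna, the sliding clamp, stood at 84.1 and 84.0 FPKM in ferret and at 48.7 and 46.7 FPKM in mouse, a log2 difference of 0.81 (SE 0.057, adjusted p = 4.09e-07) and of 1.16 to 1.21 under the other scalings. In mouse, 10.1% of the windows of Pcna transcripts recur in the processed pseudogene Pcna-ps2, which was assigned 20.3 and 18.4 FPKM, so the mouse level is uncertain to the extent that reads were divided between the copies. Rfc2, a small subunit that the main clamp loader shares with alternative loaders, stood at 4.66 and 5.31 FPKM in ferret and at 32.5 and 31.2 FPKM in mouse. The mouse mean was 6.39 times the ferret mean, and the log2 difference of -2.46 (SE 0.074, adjusted p = 9.37e-10) was the lowest among the 40 genes with FPKM as deposited and a pseudocount of 1, whereas with a pseudocount of 0.1 Gmnn (-2.72) lay below Rfc2 (-2.65). It ranged from -2.06 to -2.23 under the other scalings. Mouse Rfc2 spans chr5:134581366-134601805 (GRCm38, plus strand), and 13.4% of the windows of its transcripts lie antisense to Lat2, which had 5.15 and 5.32 FPKM.

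The remaining subunits of the loader did not share that difference. Rfc4 stood at 11.5 and 10.7 FPKM in ferret and 6.70 and 5.09 FPKM in mouse (log2 difference 0.82, adjusted p = 4.17e-05). Rfc5 stood at 8.46 and 8.63 FPKM against 5.47 and 4.18 FPKM (log2 difference 0.72, adjusted p = 8.76e-05). Rfc3 stood at 7.74 and 8.10 FPKM against 8.17 and 6.77 FPKM, and its libraries overlapped (adjusted p = 0.414). Under the other scalings its log2 difference was 0.43 to 0.49 (adjusted p = 0.00157 to 0.00525), not called. Rfc2 was thus the least abundant loader subunit in ferret and the most abundant in mouse. Rfc1, the large subunit, stood at 9.09 and 9.77 FPKM in ferret and at 13.6 and 13.2 FPKM in mouse (log2 difference -0.46, adjusted p = 1.19e-04). Under the other scalings Rfc1 lay between -0.047 and -0.11, with an adjusted p of 0.141 to 0.477, so its direction was not resolved there. Antisense overlap covered 5.81% of the windows of Rfc4 (with Eif4a2, at 238 and 237 FPKM in mouse) and 8.29% of those of Rfc5 (with Wsb2, at 57.7 and 59.2 FPKM), and its part was not tested.

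The polymerase genes leaned towards ferret astrocytes without any being called, with 5 of 6 (83.3%) higher by the adjusted p, beside 32.4% of all symbols, and a median log2 difference of 0.26. Pola1, the catalytic subunit of polymerase alpha, stood at 5.61 and 6.29 FPKM in ferret and 3.41 and 3.53 FPKM in mouse, a log2 difference of 0.64 (SE 0.080, adjusted p = 3.46e-05). Pole, the catalytic subunit of polymerase epsilon on the leading strand, stood at 2.64 and 2.60 FPKM against 1.82 and 1.51 FPKM (log2 difference 0.45, adjusted p = 6.28e-04). Pold1, the catalytic subunit of polymerase delta on the lagging strand, stood at 4.09 and 4.45 FPKM against 3.25 and 3.45 FPKM (log2 difference 0.28, adjusted p = 0.00763). All 3 catalytic subunits had both ferret libraries above both mouse libraries, and their differences stayed above 0 under the other scalings. Pole2 stood at 2.82 and 2.98 FPKM against 2.21 and 2.42 FPKM (log2 difference 0.23, adjusted p = 0.0173), and Prim2, the large subunit of primase, at 6.71 and 7.67 FPKM against 5.69 and 6.32 FPKM (log2 difference 0.22, adjusted p = 0.0321). Pold3, an accessory subunit of polymerase delta, was the exception, with overlapping libraries at 4.25 and 4.86 FPKM in ferret and 4.84 and 5.34 FPKM in mouse (adjusted p = 0.161), and its log2 difference turned from -0.13 to 0.19 at equal library totals.

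The enzymes that finish the lagging strand went opposite ways. Fen1, the nuclease that trims flaps between fragments, stood at 11.4 and 12.9 FPKM in ferret and at 6.47 and 5.74 FPKM in mouse, a log2 difference of 0.89 (SE 0.085, adjusted p = 4.11e-06). Lig1, the ligase that seals the remaining nicks, stood at 2.32 and 2.32 FPKM in ferret and at 6.08 and 6.37 FPKM in mouse, a log2 difference of -1.12 (SE 0.074, adjusted p = 2.45e-07). The mouse mean of Lig1 was 2.68 times the ferret mean. Under the other scalings Lig1 lay between -0.70 and -0.96, not called, and Fen1 between 1.24 and 1.35, called. In mouse, 71.9% of the windows of Fen1 transcripts lie antisense to Gm10143, which had 0.217 and 0.161 FPKM.

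Of the single-strand binding proteins, Rpa1 was called lower in ferret astrocytes. Rpa1, the large subunit of replication protein A, stood at 28.4 and 30.2 FPKM in ferret and at 65.6 and 66.2 FPKM in mouse, a log2 difference of -1.14 (SE 0.060, adjusted p = 4.27e-08) and of -0.76 to -0.78 under the other scalings, where it was not called. Rpa2, its middle subunit, stood at 10.1 and 11.3 FPKM in ferret and 10.4 and 10.0 FPKM in mouse, with overlapping libraries (log2 difference 0.061, adjusted p = 0.452). Under the other scalings the log2 difference of Rpa2 was 0.42 to 0.48 (adjusted p = 3.97e-04 to 9.24e-04), not called. The partners of the complex thus differed in their balance between the species. Of the genes used in mouse alone, the small subunit Rpa3 stood at 13.9 and 16.6 FPKM. Pold2 stood at 8.91 and 8.47 FPKM, Pola2 at 5.88 and 6.05 FPKM, and the catalytic primase subunit Prim1 at 3.87 and 3.72 FPKM. These 4 enter no comparison, since ferret values of these symbols were not analysed here.

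**Figure D3:**
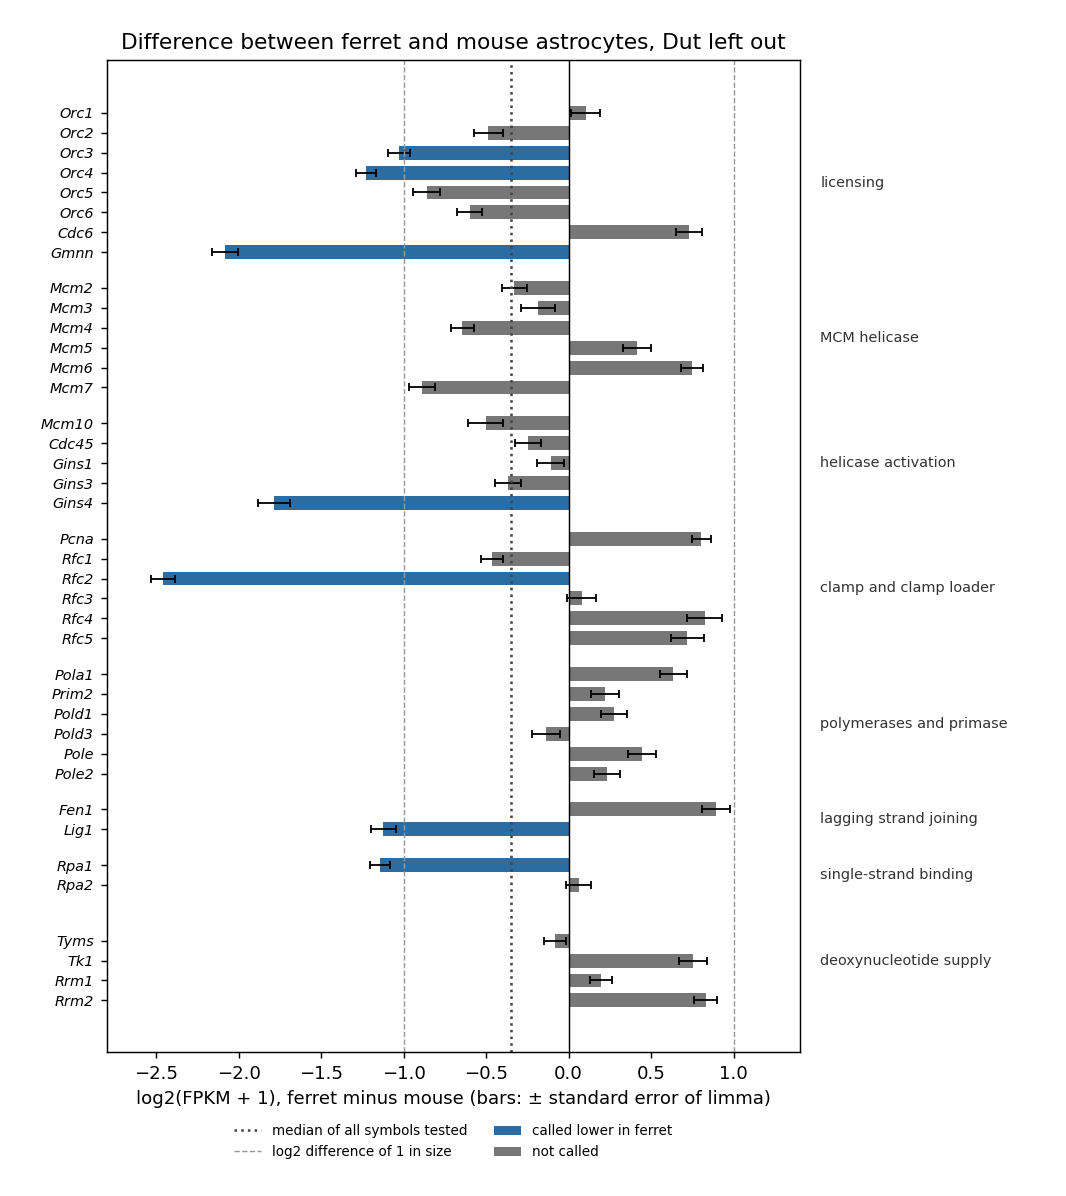
Log2 difference of each of 39 genes on log2(FPKM + 1), ferret minus mouse (horizontal axis), by role, with the standard error from limma. Blue bars are the 7 genes called lower in ferret, grey bars were not called, the dotted line is the median of all symbols tested (-0.35), and dashed lines mark -1 and 1. Bars of both directions stand within the licensing, MCM, clamp and clamp loader, lagging strand, single-strand binding and deoxynucleotide groups. The polymerase bars lie to the right of 0 except for Pold3, and the helicase activation bars lie to the left of 0.

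Other genes of the same processes, taken from lists set beside the 40, gave a similar mixture. Of 27 other replication factors tested, 3 (11.1%) were called higher and 2 (7.41%) lower, beside 13.1% and 30.1% of all symbols, with a median log2 difference of -0.045. Donson, a factor of helicase assembly and fork stability, stood at 16.5 and 16.8 FPKM in ferret and 4.05 and 3.92 FPKM in mouse (log2 difference 1.82, adjusted p = 3.97e-09), and Rnaseh2b, a subunit of the nuclease that removes ribonucleotides from DNA, at 23.9 and 22.3 FPKM against 6.06 and 5.95 FPKM (log2 difference 1.78, adjusted p = 4.50e-09). Pole4, a small subunit of polymerase epsilon, stood at 6.33 and 5.60 FPKM in ferret and 44.4 and 49.0 FPKM in mouse (log2 difference -2.78, adjusted p = 5.99e-10). Mtbp, which takes part in origin firing, had a log2 difference of -1.01 (adjusted p = 8.54e-07), which was -0.75 at equal library totals. The difference of Pole4 was opposite in direction to those of Pole and Pole2 of the same polymerase.

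Of 22 other genes of nucleotide supply, 4 (18.2%) were called higher and 6 (27.3%) lower, close to the 13.1% and 30.1% of all symbols, with a median log2 difference of -0.080. Umps, which completes UMP synthesis, stood at 20.0 and 19.6 FPKM in ferret and 6.41 and 6.68 FPKM in mouse (log2 difference 1.46, adjusted p = 1.45e-08). Ctps2, a CTP synthase, stood at 2.18 and 1.99 FPKM in ferret and at 28.0 and 32.2 FPKM in mouse, the largest decrease of the list (log2 difference -3.33, adjusted p = 3.04e-10). Samhd1, which breaks down deoxynucleotides, stood at 8.96 and 8.14 FPKM against 32.6 and 32.0 FPKM (log2 difference -1.80, adjusted p = 4.20e-09). The called genes named here thus lie on both the synthesis and the breakdown side.

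Mitosis genes had the highest median of the lists, 0.46 over 20 genes. By the adjusted p alone 12 (60%) were higher and 4 (20%) lower, beside 32.4% and 56.2% of all symbols. The calls were fewer, with 2 (10%) higher and 1 (5%) lower, beside 13.1% and 30.1%. Aurka, a kinase of the spindle poles, stood at 8.55 and 9.89 FPKM in ferret and 3.32 and 2.75 FPKM in mouse (log2 difference 1.34, adjusted p = 4.58e-07), and Cenpf, a kinetochore protein, had a log2 difference of 1.17 (adjusted p = 1.47e-06). Cdk1, the kinase that drives entry into mitosis, was the gene called lower, at 5.95 and 5.88 FPKM in ferret and 27.9 and 25.6 FPKM in mouse (log2 difference -2.00, adjusted p = 2.24e-09). Top2a, the topoisomerase of dividing cells, stood at 14.0 and 15.5 FPKM against 12.5 and 11.3 FPKM (log2 difference 0.29, adjusted p = 0.00577). Mki67 was not analysed here.

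Of 17 E2F and RB regulators tested, 2 (11.8%) were called higher and 3 (17.6%) lower, beside 13.1% and 30.1% of all symbols, with a median log2 difference of -0.20. Mybl2, which joins the complex that turns on late cell cycle genes, stood at 6.19 and 6.82 FPKM in ferret and 1.45 and 1.79 FPKM in mouse (log2 difference 1.52, adjusted p = 1.04e-07). E2f8, a repressing E2F factor, stood at 5.05 and 5.97 FPKM against 1.65 and 1.17 FPKM (log2 difference 1.44, adjusted p = 8.00e-07). E2f6, also a repressing factor, stood at 4.08 and 4.22 FPKM in ferret and 25.8 and 26.1 FPKM in mouse (log2 difference -2.39, adjusted p = 5.39e-10), and Lin52 had a log2 difference of -1.23 (adjusted p = 9.07e-08), which was -0.87 at equal library totals. The factors called in the 2 directions thus include repressors on both sides. At equal library totals the medians of the 4 lists were 0.30 for replication factors, 0.29 for nucleotide supply, 0.77 for mitosis genes and 0.17 for E2F and RB regulators, beside -0.012 for all symbols.

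**Figure D4:**
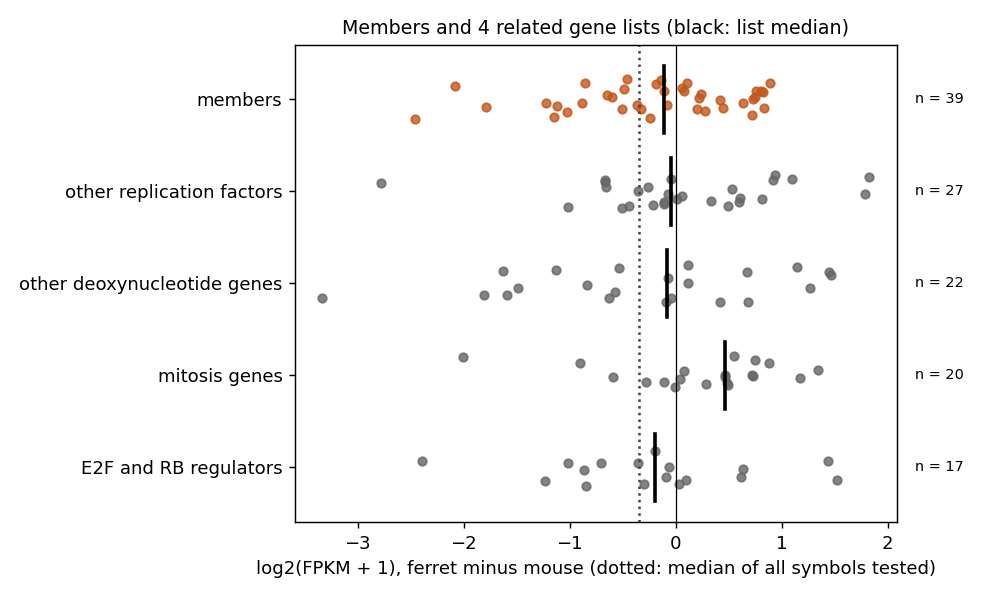
Log2 difference on log2(FPKM + 1), ferret minus mouse (horizontal axis), of the 39 genes and of 4 related lists (rows), with 1 point per gene, a black bar at each list's median and a dotted line at the median of all symbols tested. Points are spread vertically for legibility only. The median of the mitosis genes, 0.46, lies farthest to the right, and each list holds genes on both sides of 0.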

How the data were processed

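RNA of 2 ferret and 2 mouse astrocyte libraries (stranded, polyA-selected, paired-end) was sequenced. Per the labels and methods, the authors aligned reads with STAR (2.7.0f) to each species' genome and deposited 1 FPKM per gene and library from Cufflinks (2.2.1), with the Ensembl annotation of each species. FPKM holds no read counts, and the study's counts were not used here, so low values carry no interval, and gene models of unequal completeness enter the species comparison.

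Symbols were matched in upper case (13373 shared), with the row of the highest mean where a symbol had several rows (7 symbols in ferret, 13 in mouse, none of the 40 genes). log2(FPKM + 1) was fitted with limma (3.58.1, R 4.3.3, trended empirical Bayes) over 10204 symbols with a mean of at least 1 FPKM in either species, with Benjamini-Hochberg adjustment over all of them. The fit was tested on simulated data. Alternatives were 3 other scalings, a pseudocount of 0.1, no filter, other handling of repeated symbols, a replicate block, the adjusted p alone, and each library left out. Every listed gene with values is named. Of related lists, the 2 called genes farthest in each direction are named, with Top2a always, and 1 gene that this rule names is not reported here. The genes and lists were chosen with earlier results of these data known. Windows of 100 bases and coordinates are from GENCODE M21 (GRCm38), a release other than the authors', for mouse alone, and partners are named above 5% of windows. Promoter and protein sequences were not used here. Groups follow the sample titles.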

Additional observations from a re-analysis of the deposited data

How the results depend on the processing

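The count of replication genes called higher in ferret astrocytes moved from 1 to 8 with libraries set to equal totals, to 10 with a sum of 1000000, to 10 with quantile normalization, to 2 with a pseudocount of 0.1 (Cdc6 joined, at 1.07) and to 16 by the adjusted p alone. The count called lower moved from 7 to 3 under each of the 3 scalings and to 17 by the adjusted p alone. It ranged from 6 to 7 with a library left out, the 6 being without ferret replicate 2, where Orc3 was -0.97. Over all 10204 symbols, the 3 scalings moved the count called higher from 1336 to 1954, 2197 and 2080. They moved the count called lower from 3069 to 2215, 2536 and 2082. The median log2 difference of the replication genes moved from -0.096 to 0.23, 0.26 and 0.33 under the scalings, and ranged from -0.092 to -0.037 with a library left out.

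Signs turned under scaling for genes that were not called. At equal totals the log2 differences were 0.0070 for Mcm2, 0.16 for Mcm3, 0.048 for Cdc45, 0.18 for Gins1, 0.19 for Pold3 and 0.28 for Tyms. With a sum of 1000000 they were 0.0078, 0.18, 0.059, 0.22, 0.22 and 0.29 in that order, and after quantile normalization 0.067, 0.24, 0.19, 0.32, 0.27 and 0.34, with Gins3 at 0.058. With a library left out, Rfc3 ranged from -0.040 (without mouse replicate 2) to 0.20 and Rpa2 from -0.015 (without ferret replicate 2) to 0.14. Of 480 values of single genes under 12 alternatives, 420 kept their direction and their side of the call. That total includes all 40 values each for no filter, the first or sum of repeated symbols, and the replicate block. Those alternatives could not change the log2 difference of these genes. Under the scalings, 23 of 40 values did so at equal totals, 21 with a sum of 1000000 and 20 with quantile normalization.

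With the replicate block, 1 gene was called higher and 7 lower, as without it, and the median stayed at -0.096. The replicate numbers come from the labels alone, the deviations of same-numbered libraries correlated at 0.010 across genes, and they give no pairing of the species. Without the filter on low values, or with the first or the sum of repeated symbols, the counts were also 1 and 7. Read counts were not used here, so what depth allows at the lowest levels, such as those of Mcm10 and Orc1, was not tested.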
